A study of Mus musculus with 3 samples.

Results

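The subject of this report is the set of nuclear genes that encode subunits of the mitochondrial respiratory chain and of ATP synthase, followed in the developing mouse kidney and sorted by complex. Members were taken by gene symbol alone, as array features with exactly 1 platform symbol that begins with Nduf and a subunit letter and number, is Sdha, Sdhb, Sdhc or Sdhd, begins with Uqcr, Cox4 to Cox8 or Atp5, or is Cyc1. The rule found 79 features of 78 symbols, and 77 genes had a value on all 3 arrays, of 19015 gene rows in all. Complex I gave 32 genes, complex II 4, complex III 9, complex IV 16 and complex V, the ATP synthase, 16. Atp5l was left out of all counts because it had a value on array 2 only (0.43). A further feature of Atp5md lacked a value on array 1 and stayed out of that gene's row; it had 1.17 on array 2 and 0.89 on array 3.

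The study set metanephroi (the rudiment of the permanent kidney) of 11.5 days post coitum (dpc) against fetal kidneys of 13.5 dpc, both from normal CD1 mice, microdissected and pooled over both sexes. No treatment or genetic change is named in the labels. Each of 3 two-colour arrays of mouse oligonucleotides (Compugen) carried amplified RNA of both ages, with 11.5 dpc in channel 1 and 13.5 dpc in channel 2. Every value below is a log2 ratio, read as 11.5 over 13.5 dpc, so that a positive value means a higher signal at 11.5 dpc. That direction is the likely one and is not settled, and every direction turns if it is wrong. A ratio carries no level, so the levels of different genes were not compared, and the presence of kidney markers could not be checked from a level.

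The respiratory chain hands electrons from NADH and succinate through complexes I and II to ubiquinone, on through complex III to cytochrome c, and through complex IV to oxygen. Complexes I, III and IV pump protons across the inner mitochondrial membrane, and ATP synthase lets them back through its rotor to make ATP. All members here are nuclear genes; mitochondrial DNA encodes further subunits of every complex except complex II, and these are not analysed here. In the adult kidney, the proximal tubule and the thick ascending limb are rich in mitochondria that power salt transport. At the ages compared, such segments have not yet matured.

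The arrays gave ratios for 20601 (array 1), 21274 (array 2) and 21563 (array 3) gene features. In the same order, the standard deviations over all gene rows were 0.56, 0.75 and 0.93. The dyes were ordered red/green on the first pair of arrays and green/red on array 3. Across all rows the Pearson correlation was 0.27 between arrays 1 and 2, 0.12 between arrays 1 and 3 and -0.12 between arrays 2 and 3, and the labels alone do not settle the orientation of array 3. As deposited, array 3 gave the markers with the largest ratios the same sign as the other arrays: the erythroid marker Ermap had 3.39, 3.80 and 3.34 and the muscle marker Acta1 had -2.59, -2.86 and -1.63 on arrays 1, 2 and 3. The ratios were therefore used as deposited, and turning array 3 was kept as an alternative. Separate RNA extracts for the arrays are not stated, and the p-values then reflect no more than the variation among 3 hybridisations, which may be technical.

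Small ratios in both directions were found among the subunit genes, and more of them leaned to 11.5 dpc than to 13.5 dpc. A gene was counted as one-signed when all 3 arrays put it on the same side of 0. By that count 27 of the 77 genes were positive on all 3 arrays, where 16.8% of all rows were, and 10 were negative, where 18.5% of all rows were. The remaining 40 genes had mixed signs. The positive genes ran from a mean of 0.13 (Ndufa1) to 1.20 (Ndufa3), and the negative ones from -0.63 (Cox6b1) to -0.22 (Ndufa10). With the sign of array 3 turned, 11 genes were positive and 2 negative on all arrays, where 18.9% and 10.3% of all rows were. That alternative gave 23 of the 77 means the opposite sign: 5 of the 27 positive genes (Ndufa3, Ndufs4, Cox4i2, Cox7c and Atp5j), 2 of the 10 negative ones (Cox7a1 and Atp5a1) and 16 of the 40 mixed ones. Without array 1, 20 genes were negative on both remaining arrays, where 26.7% of all rows were.

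The median of the 77 means was 0.15, beside -0.0084 over all rows, and 53 genes had a mean above 0, where 49.1% of all rows did. By array, the members' median was 0.24 on array 1, 0.083 on array 2 and 0.043 on array 3 (SD of these medians 0.11). Over all rows these medians were 0.011, 0.064 and -0.091, so the members lay closest to the other genes on array 2. The number of genes above 0 was 53 on array 1 (68.8%, all rows 51.0%), 50 on array 2 (64.9%, all rows 56.0%) and 41 on array 3 (53.2%, all rows 41.7%). With array 3 turned, the median over genes was 0.066, beside 0.042 over all rows. After a running median along the oligonucleotide library was subtracted, it was 0.11.

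No gene passed the test. The mean of each row was tested against 0 with limma, fitted on all 19015 rows, and 0 of the 77 genes had a Benjamini-Hochberg adjusted p under 0.05 (0% of all rows did). The smallest limma adjusted p among them was 0.52. At an unadjusted limma p under 0.05, 0 genes were higher at 11.5 dpc, where 4.17% of all rows were, and 3 were lower, where 5.07% of all rows were: Cox6b1, Uqcrc2 and Atp5k. The ordinary one-sample test also passed 0 of the 77 genes, with 8 at an unadjusted p under 0.05 (10.4%, where 9.62% of all rows were). None of the 77 genes reached 2-fold in the same direction on all arrays, as 0.684% of all rows did.

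**Figure D1:**
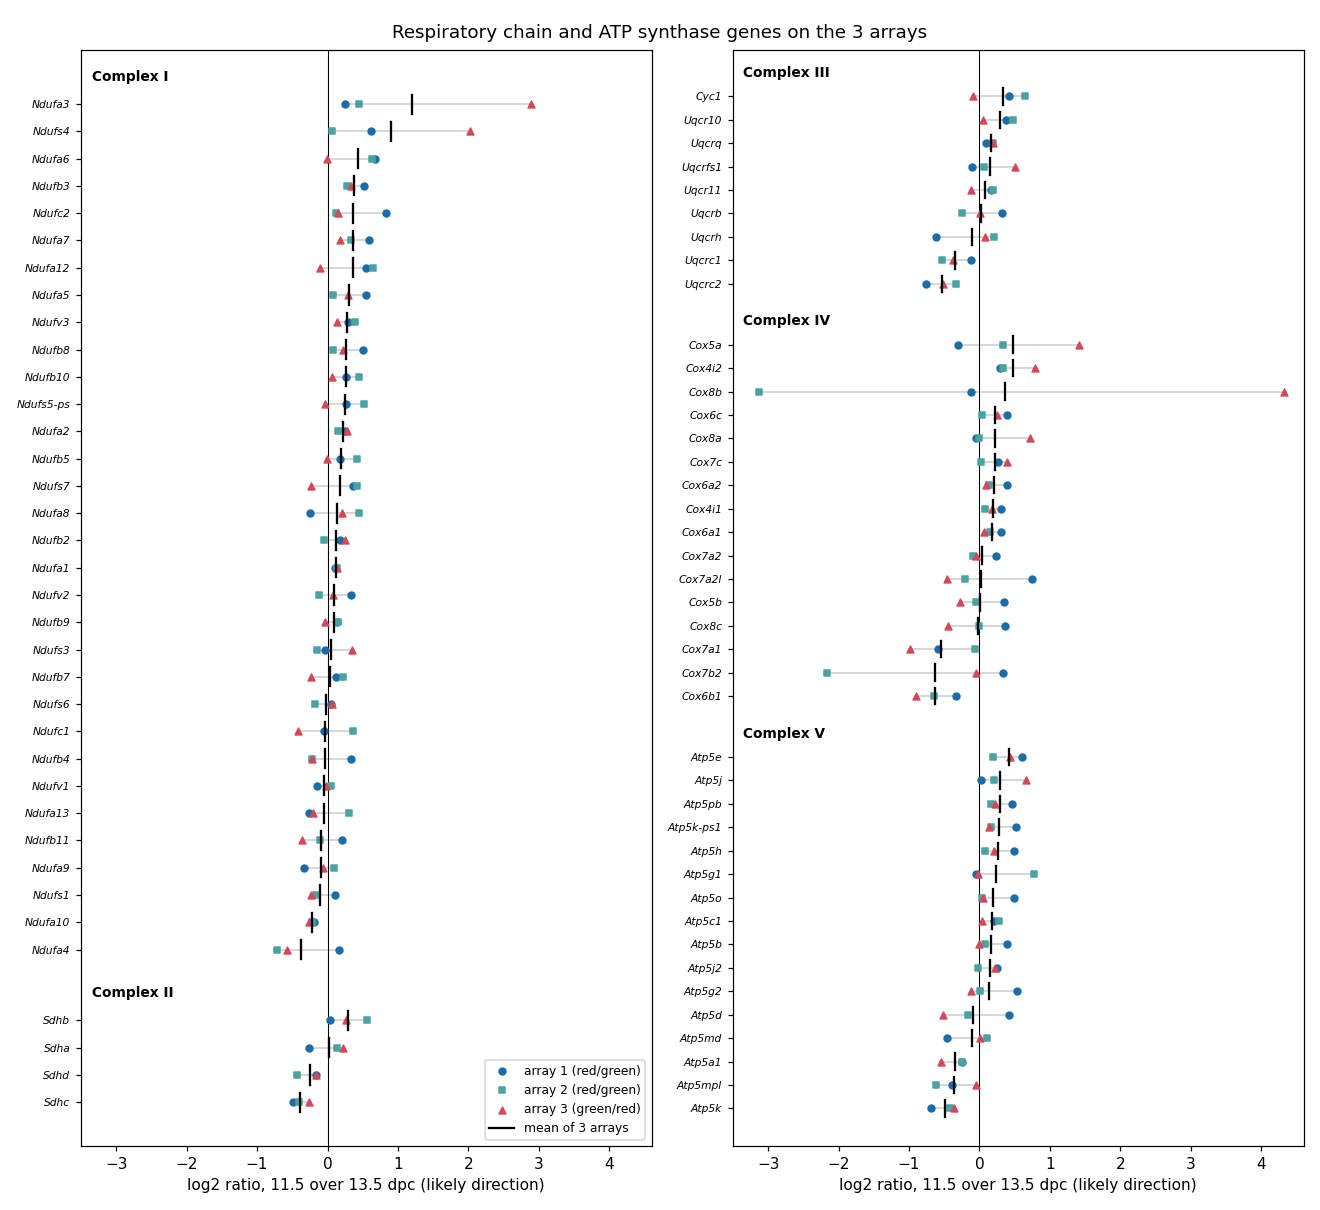
Log2 ratios of the 77 subunit genes, 11.5 over 13.5 dpc in the likely direction, by complex and sorted by mean. Each symbol is 1 array, the black bar is the mean of the 3 arrays and the grey line spans them; most genes lie within 1 log2 unit of 0 on every array, and Cox8b spans from -3.13 to 4.32.

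The genes also differed little from 0 in size. A mean over 0.5 in either direction was found for 6 genes, where 18.7% of all rows had one. A value over 1 in size on at least 1 array was found for 5 genes, 6.49% of them, against 24.5% of all rows. The median SD over arrays was 0.23 among the subunit genes and 0.34 among all rows. Cox8b, Ndufa3, Cox7b2 and Ndufs4, 4 of the 77, had an SD over 1, as 11.7% of all rows did.

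**Figure D2:**
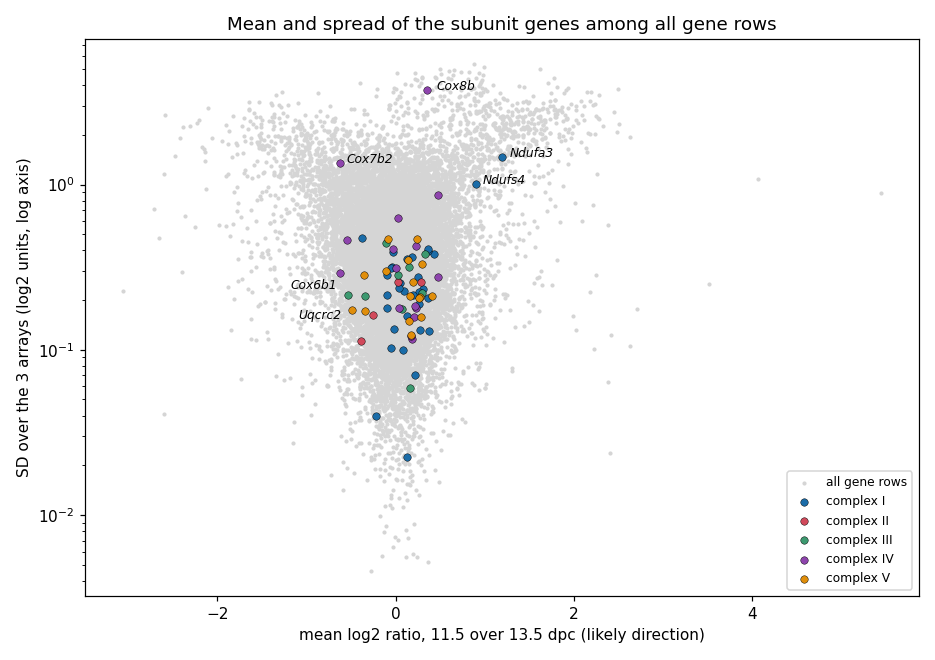
Mean log2 ratio (x axis) against the SD over the 3 arrays (y axis, log scale) for all 19015 gene rows (grey) and the 77 subunit genes (coloured by complex). The subunit genes sit near a mean of 0, with a median SD of 0.23, and the labelled Cox8b, Ndufa3, Ndufs4 and Cox7b2 lie above an SD of 1.

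Genes of the respiratory chain are classical targets of the transcription factor NRF1 and of the ETS family factor GABP, so their promoter windows were searched for a core of each site. Windows of 300 bases (250 before to 50 after a gene's start, RefSeq, GRCm38.p6) were found for 60 of the 77 genes. The NRF1 core, GCGCA and GCGC with any base between them, was present on either strand in 14 of the 60 genes (23.3%), and in 7.17% of the protein-coding genes with a window. The ETS core CCGGAAG was present in 14 genes (23.3%), and in 12.9% of protein-coding genes. By window, 4.6% of all 32851 windows held the first and 8.86% the second, and matches of the 2 cores overlapped in 0 windows. The NRF1 core was in 5 of 20 genes that were positive on all arrays and in 3 of 6 that were negative, and the ETS core likewise in 5 of 20 and 3 of 6. A match is a run of letters and not a measured binding site.

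Windows that held both cores are shown because their genes lay on different sides of 0 in the array data: Atp5h and Cox6a1 were positive on all arrays (means 0.26 and 0.18), while Atp5k and Sdhd were negative (means -0.49 and -0.25). The window of Cox6b1, the lowest gene, is shown with its ETS core. These were chosen after the values were seen. Each line gives the 250 bases before the start, 5′ to 3′ in the direction of transcription, with the cores on either strand in capitals. All 5 genes lie on the minus strand, at chr11:115419920-115420169 (Atp5h), chr5:115348959-115349208 (Cox6a1), chr5:108434400-108434649 (Atp5k), chr9:50603850-50604099 (Sdhd) and chr7:30626115-30626364 (Cox6b1) of GRCm38.p6.
Atp5h: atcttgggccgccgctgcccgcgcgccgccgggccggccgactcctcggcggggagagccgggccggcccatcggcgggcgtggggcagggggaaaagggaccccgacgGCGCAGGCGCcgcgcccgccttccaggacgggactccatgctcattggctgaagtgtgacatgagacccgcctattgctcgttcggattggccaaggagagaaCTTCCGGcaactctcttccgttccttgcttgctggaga
Cox6a1: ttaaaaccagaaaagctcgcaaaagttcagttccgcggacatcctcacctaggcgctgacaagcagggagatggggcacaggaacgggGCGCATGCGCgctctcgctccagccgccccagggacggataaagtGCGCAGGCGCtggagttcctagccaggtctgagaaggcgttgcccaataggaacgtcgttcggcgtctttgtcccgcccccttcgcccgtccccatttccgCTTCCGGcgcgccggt
Atp5k: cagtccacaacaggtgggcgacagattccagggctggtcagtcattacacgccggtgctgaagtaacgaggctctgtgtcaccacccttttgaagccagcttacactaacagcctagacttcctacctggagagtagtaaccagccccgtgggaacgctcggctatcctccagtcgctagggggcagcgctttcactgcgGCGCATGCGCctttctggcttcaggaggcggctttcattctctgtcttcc
Sdhd: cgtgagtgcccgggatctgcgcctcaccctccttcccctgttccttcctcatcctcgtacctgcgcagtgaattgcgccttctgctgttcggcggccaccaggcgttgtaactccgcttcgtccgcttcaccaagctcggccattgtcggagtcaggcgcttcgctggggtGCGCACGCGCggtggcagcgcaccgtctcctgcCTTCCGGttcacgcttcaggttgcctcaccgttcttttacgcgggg
Cox6b1: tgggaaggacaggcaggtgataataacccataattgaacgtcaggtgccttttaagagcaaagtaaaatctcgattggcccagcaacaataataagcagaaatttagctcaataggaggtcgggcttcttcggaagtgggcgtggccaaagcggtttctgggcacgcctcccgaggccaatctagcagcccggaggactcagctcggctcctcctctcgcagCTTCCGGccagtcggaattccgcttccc
The NRF1 core began 141 bases before the start in Atp5h, 162 and 117 in Cox6a1, 50 in Atp5k and 79 in Sdhd. The ETS core began 38, 16 and 46 bases before the start in Atp5h, Cox6a1 and Sdhd and 28 bases before it in Cox6b1; that of Atp5k lay after the start and outside the bases shown.

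Complex I, the NADH dehydrogenase that feeds electrons into the chain, leaned to 11.5 dpc through its accessory subunits. Over its 32 genes the median was 0.13. On all arrays 11 were positive (34.4%, all rows 16.8%) and 1 was negative (3.1%, all rows 18.5%). Its medians on arrays 1, 2 and 3 were 0.23, 0.14 and 0.032. The 27 accessory genes had a median of 0.20, and all 11 one-signed positive genes were among them. The 5 core genes with values, which carry the flavin and iron-sulfur path, had a median of 0.054, and none of the 5 had 1 sign on all arrays. The difference between core and accessory genes was not tested.

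The core genes stayed close to 0. Ndufv1, which binds the flavin that accepts electrons from NADH, had -0.16, 0.047 and -0.028 on arrays 1, 2 and 3. Ndufv2 had 0.33, -0.12 and 0.079, and Ndufs1, the largest iron-sulfur subunit, had 0.10, -0.16 and -0.24. Ndufs3 had -0.037, -0.14 and 0.34, and Ndufs7, which holds the cluster next to ubiquinone, had 0.36, 0.42 and -0.24. In these 5 genes the arrays lay on both sides of 0, and the means from -0.10 (Ndufs1) to 0.18 (Ndufs7) were each smaller than that gene's SD over arrays (0.10 to 0.37).

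The highest complex I genes rested on array 3. Ndufa3, an accessory subunit of the membrane arm, had 0.25 on array 1, 0.45 on array 2 and 2.88 on array 3, a mean of 1.20 ± 1.47 (SD, n = 3 arrays; limma adjusted p = 0.60). Ndufs4, an accessory subunit needed for a stable enzyme, had 0.61, 0.065 and 2.02, a mean of 0.90 ± 1.01. Without array 3 these means were 0.35 and 0.34, and with array 3 turned they were -0.73 and -0.45. In Ndufa6, the next highest, arrays 1 and 2 (0.67 and 0.63) stood apart from array 3 (-0.0029).

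Other complex I genes had arrays that lay close together. Ndufb3, in the distal membrane arm, had 0.52, 0.27 and 0.33, a mean of 0.37 ± 0.13 (1.30-fold, limma unadjusted p = 0.069). Ndufa7 had 0.59, 0.33 and 0.18, and Ndufa1, a small membrane subunit, had 0.10, 0.14 and 0.14, the narrowest spread of the complex (SD 0.022). The 9 Ndufb genes had a median of 0.13, with 3 positive (33.3%) and 0 negative on all arrays, where 16.8% and 18.5% of all rows were. Ndufa10, an accessory subunit with a nucleoside kinase fold, was the 1 gene of the complex below 0 on every array, with -0.19, -0.22 and -0.27 and a mean of -0.22 ± 0.040 (-0.047 with array 3 turned). Ndufa4, named as a complex I gene and now counted among the subunits of complex IV, had 0.17, -0.71 and -0.57. The row called Ndufs5-ps carries the symbol of a transcribed pseudogene, so its signal (mean 0.25) cannot be told from that of a near-identical copy.

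Complex II, succinate dehydrogenase, links the citric acid cycle to the chain, and its 4 genes did not share a direction. Its membrane anchors, which bind haem and ubiquinone, were below 0 on all arrays. Sdhc had -0.49, -0.41 and -0.26 (mean -0.39 ± 0.11, 1.31-fold lower, limma unadjusted p = 0.061), and Sdhd had -0.16, -0.44 and -0.16 (mean -0.25 ± 0.16). These means were -0.21 and -0.15 with array 3 turned. The iron-sulfur subunit Sdhb had 0.040, 0.55 and 0.27 (mean 0.29 ± 0.26), above 0 on all arrays. The flavoprotein Sdha had -0.27, 0.13 and 0.22, with arrays on both sides of 0. On arrays 2 and 3 both anchors lay below both catalytic subunits, while Sdha (-0.27) lay below Sdhd (-0.16) on array 1. With so few genes this order was not tested, and on array 3 it reverses if that array is turned. By array the medians of the 4 were -0.21, -0.14 and 0.030, so array 3 lay on the other side of 0. Over genes the median was -0.11, the only complex below 0, and it stayed negative when any 1 array was left out (-0.18 to -0.062) or array 3 was turned (-0.13).

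Complex III, the cytochrome bc1 complex, had its lowest values in the core proteins that face the matrix. Uqcrc2 had -0.76, -0.33 and -0.52 on arrays 1, 2 and 3, a mean of -0.54 ± 0.21 (1.45-fold lower, limma unadjusted p = 0.032, adjusted p = 0.53). Uqcrc1, its partner, had -0.11, -0.54 and -0.38, a mean of -0.34 ± 0.21. Both lay below 0 on every array, and with array 3 turned their means were -0.19 and -0.090. The redox subunits did not: Cyc1, cytochrome c1, had 0.42, 0.65 and -0.088, and Uqcrfs1, the Rieske iron-sulfur protein, had -0.11, 0.064 and 0.50. The mean of Cyc1 was 0.33 ± 0.38 and that of Uqcrfs1 0.15 ± 0.32, so neither stood clear of its spread, and that of Uqcrfs1 was -0.18 with array 3 turned.

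Of the small accessory subunits of complex III, Uqcr10 (0.37, 0.47 and 0.048) and Uqcrq (0.091, 0.20 and 0.19) were positive on all arrays, and the mean of Uqcrq (0.16 ± 0.059) was 0.033 with array 3 turned. Uqcrh, the acidic hinge protein near cytochrome c1, had -0.61, 0.21 and 0.085. The median over the 9 genes was 0.078, between 0.0086 on array 3 and 0.19 on array 2. It was 0.0086 as well after the running median along the library, close to that of all rows (-0.0029).

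Complex IV, cytochrome c oxidase, has several subunits that exist as tissue isoforms. Its median over 16 genes was 0.18. On all arrays 6 were positive (37.5%, all rows 16.8%) and 2 negative (12.5%, all rows 18.5%). Medians by array were 0.30, -0.0014 and 0.081. Means of the widely expressed subunits were mostly small and above 0, but not every gene had the same sign on all arrays. Cox4i1 had 0.31, 0.073 and 0.18 (mean 0.19 ± 0.12), and Cox6a1 had 0.31, 0.15 and 0.070 (mean 0.18 ± 0.12). These means were 0.066 and 0.13 with array 3 turned. Cox6c and Cox7c had means of 0.23 ± 0.18 and 0.22 ± 0.18, which became 0.065 and -0.035 with array 3 turned. Cox7a2 had 0.24, -0.091 and -0.045, and Cox5b had 0.34, -0.045 and -0.28, so the arrays of each lay on both sides of 0.

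Among the widely expressed subunits, Cox6b1 alone was below 0 on every array. It encodes the subunit that sits on the cytochrome c side of the enzyme, and it had the lowest mean of all 77 genes. Its values were -0.33, -0.65 and -0.91, a mean of -0.63 ± 0.29 (1.54-fold lower at 11.5 dpc, limma unadjusted p = 0.027, adjusted p = 0.52). All 3 arrays were below 0. With array 3 turned the mean was -0.022.

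The isoforms known from heart and skeletal muscle did not share a direction. Cox7a1 had -0.59, -0.065 and -0.99 (mean -0.55 ± 0.46), below 0 on all arrays, and its mean was 0.11 with array 3 turned. Cox6a2 had 0.39, 0.14 and 0.091 (mean 0.21 ± 0.16), above 0 on all arrays and near its widely expressed counterpart Cox6a1. Cox8b had -0.12 on array 1, -3.13 on array 2 and 4.32 on array 3, an SD of 3.75 that leaves its mean of 0.36 without a direction. Its counterpart Cox8a had -0.044 on array 1, lay closest to 0 on array 2 and had 0.72 on array 3, and its mean of 0.22 was -0.25 with array 3 turned. Of 11 markers of striated muscle with values, 3 were negative on all arrays (27.3%, all rows 18.5%), among them Acta1 (mean -2.36 ± 0.65) and Myog (-0.54 ± 0.27). Another 3 were positive (27.3%, all rows 16.8%), among them Actc1 (0.68 ± 0.14). The part of striated muscle in the ratios of these isoforms was not tested.

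Further isoforms had wide or mixed values. Cox4i2, the form known from lung, had 0.29, 0.33 and 0.79 (mean 0.47 ± 0.28, limma unadjusted p = 0.060), positive on every array. Its mean was -0.055 with array 3 turned. Of the testis forms, Cox7b2 had 0.34, -2.16 and -0.054, with only array 2 far from 0, and Cox8c had 0.37, -0.0029 and -0.44. Cox7a2l, which helps join complexes III and IV into supercomplexes, had 0.74, -0.20 and -0.46. Cox5a, a subunit without a tissue isoform, had the highest mean of the complex, 0.48 ± 0.87, from -0.31, 0.33 and 1.41. It rested on array 3: without that array the mean was 0.011, and with it turned -0.46.

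Complex V, ATP synthase, had a median of 0.17 over 16 genes. On all arrays 7 were positive (43.75%, all rows 16.8%) and 3 negative (18.75%, all rows 18.5%). By array the medians were 0.32, 0.084 and 0.026. In the F1 head, where ATP is made, the subunits of the catalytic hexamer had means on different sides of 0. Atp5a1 (alpha) had -0.25, -0.24 and -0.54 (mean -0.34 ± 0.17), below 0 on all arrays. Atp5b (beta) had 0.40, 0.083 and -0.0058, with mixed signs and a mean smaller than its SD (0.16 ± 0.21). With array 3 turned the means of Atp5a1 and Atp5b were 0.018 and 0.16, both above 0. Of the central stalk, Atp5c1 (gamma) had 0.21, 0.28 and 0.043, and Atp5e (epsilon) had 0.61, 0.19 and 0.44, the highest mean of the complex (0.41 ± 0.21, 1.33-fold, limma unadjusted p = 0.068; 0.12 with array 3 turned). Atp5d (delta) had 0.41, -0.16 and -0.52.

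The Fo part and the peripheral stalk carry the proton channel and hold the head in place. Their 8 listed genes had a median of 0.22, and 4 were positive on all arrays (50%, all rows 16.8%). The list left out the small Fo proteins Atp5mpl and Atp5md. The stalk genes Atp5pb, Atp5h and Atp5j had means of 0.28 ± 0.16, 0.26 ± 0.21 and 0.30 ± 0.33, and Atp5o, the joint between stalk and head, had 0.20 ± 0.26. With array 3 turned the mean of Atp5j was -0.14. The c-ring genes Atp5g1 and Atp5g2, whose products form the same rotor ring, had -0.042, 0.78 and -0.025, and 0.53, 0.0029 and -0.13. Each was thus set by a single array, array 2 for Atp5g1 and array 1 for Atp5g2.

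Atp5k, subunit e at the interface of ATP synthase dimers, was the only one of the 8 listed Fo genes below 0 on all arrays. It had -0.69, -0.42 and -0.36, a mean of -0.49 ± 0.17 (1.40-fold lower, limma unadjusted p = 0.038, adjusted p = 0.54), and -0.25 with array 3 turned. A feature under the pseudogene symbol Atp5k-ps1 had 0.51, 0.17 and 0.13, above 0 on all arrays, so 2 features of near-identical names gave opposite signs and did not overlap. Which transcripts each feature detects could not be checked without its oligonucleotide sequence. Outside that list, Atp5mpl, a small protein bound to Fo, had -0.39, -0.62 and -0.054, so it too was below 0 on all arrays. Atp5md, another small Fo protein outside the list, had -0.45, 0.11 and 0.010. The further feature of Atp5md, without a value on array 1, was higher on the other arrays, with 1.17 on array 2 and 0.89 on array 3.

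The arrays ranked the 77 genes only loosely alike. Spearman correlations across these genes were 0.25 between arrays 1 and 2, 0.21 between arrays 1 and 3 and 0.34 between arrays 2 and 3. Over all rows they were 0.36, 0.13 and 0.0010. Pearson's r between arrays 2 and 3 was -0.29, for a set that holds Cox8b at opposite ends of both arrays. These are descriptions across genes that share arrays and are not independent replicates.

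Genes that build or serve the complexes were followed beside the subunits, from lists written down with earlier results of these data known. Assembly factors, which insert cofactors and join subunits, had a median of 0.17 over 34 genes. On all arrays 11 were positive (32.4%, all rows 16.8%) and 2 negative (5.88%, all rows 18.5%). Coa5, an assembly factor of complex IV, had 0.79, 1.93 and 1.22 (mean 1.31 ± 0.58, limma adjusted p = 0.45), and Sdhaf4, one of complex II, had 0.75, 1.00 and 0.27. At an unadjusted limma p under 0.05, 3 of the 34 were higher and 0 lower, where 4.17% and 5.07% of all rows were. Electron carriers and their synthesis enzymes had a median of 0.079 over 13 genes, with 4 positive (30.8%, all rows 16.8%) and 3 negative (23.1%, all rows 18.5%). The subunits of the electron transfer flavoprotein, Etfa and Etfb, had means of 0.43 ± 0.36 and 0.48 ± 0.23. The 3 negative genes were Cycs, cytochrome c (-0.26, -0.034 and -0.66), Coq5 (mean -0.27) and Etfdh (mean -0.053).

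The enzymes of pyruvate oxidation and the citric acid cycle, which supply the chain with NADH, had a median of -0.053 over 17 genes. On all arrays 1 was positive (5.88%, all rows 16.8%) and 4 were negative (23.5%, all rows 18.5%). Idh3b, a subunit of the NAD-linked isocitrate dehydrogenase, was the positive one, with 0.74, 0.64 and 0.91 (mean 0.76 ± 0.13, limma adjusted p = 0.42). Dlat, of the pyruvate dehydrogenase complex, had a mean of -0.38 ± 0.095. Regulators of mitochondrial genes and of mitochondrial DNA had a median of -0.015 over 15 genes. Of these, 4 were positive (26.7%, all rows 16.8%) and 3 negative (20%, all rows 18.5%). Ssbp1, which coats single-stranded mitochondrial DNA, had 1.41, 1.06 and 0.70 (mean 1.06 ± 0.35), and Gabpb1, a subunit of GABP, had 0.49 ± 0.071. These had the smallest limma p of that list. Signs were mixed for Nrf1 (0.010, -0.44 and -0.091) and for Gabpa, also of GABP (0.85, 0.69 and -0.54). In each of these 4 lists 0 genes passed limma's adjusted threshold. At an unadjusted limma p under 0.05 there were 3 of 34, 1 of 13, 1 of 17 and 2 of 15 genes. All of them were higher at 11.5 dpc, where 4.17% of all rows were higher and 5.07% lower.

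**Figure D3:**
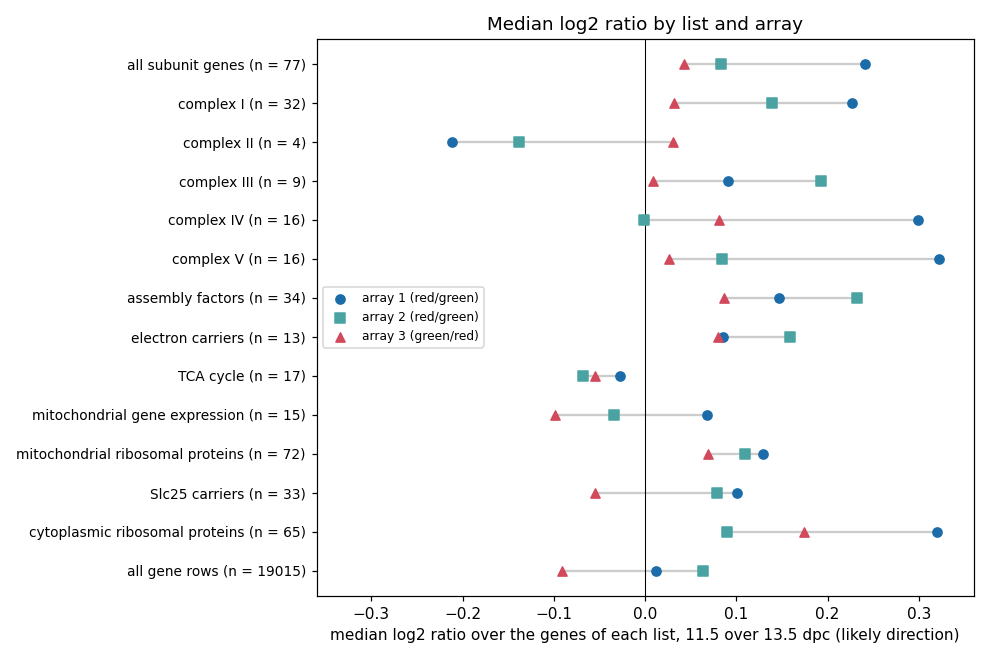
Median log2 ratio of each list (rows, with the number of genes) on each of the 3 arrays (symbols), 11.5 over 13.5 dpc in the likely direction; the grey line spans the arrays. Medians of all subunit genes were above 0 on the 3 arrays (0.24, 0.083 and 0.043), and those of citric acid cycle genes were below 0 on each. On array 3 the median of all rows (-0.091) was lower than that of the citric acid cycle genes (-0.054).

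Among other families, 40 of 65 cytoplasmic ribosomal protein genes were positive on all arrays and 2 negative, with a median of 0.18. Of 72 mitochondrial ribosomal protein genes, 30 were positive and 4 negative, with a median of 0.14. The Slc25 carriers of the inner mitochondrial membrane had 3 positive and 5 negative of 33, with a median of 0.067. The share of subunit genes positive on all arrays (35.1%) lay below that of both ribosomal families (61.5% and 41.7%) and above that of the carriers (9.09%). Over all rows 16.8% were positive and 18.5% negative. The shares of the lists were not tested against each other.

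**Figure D4:**
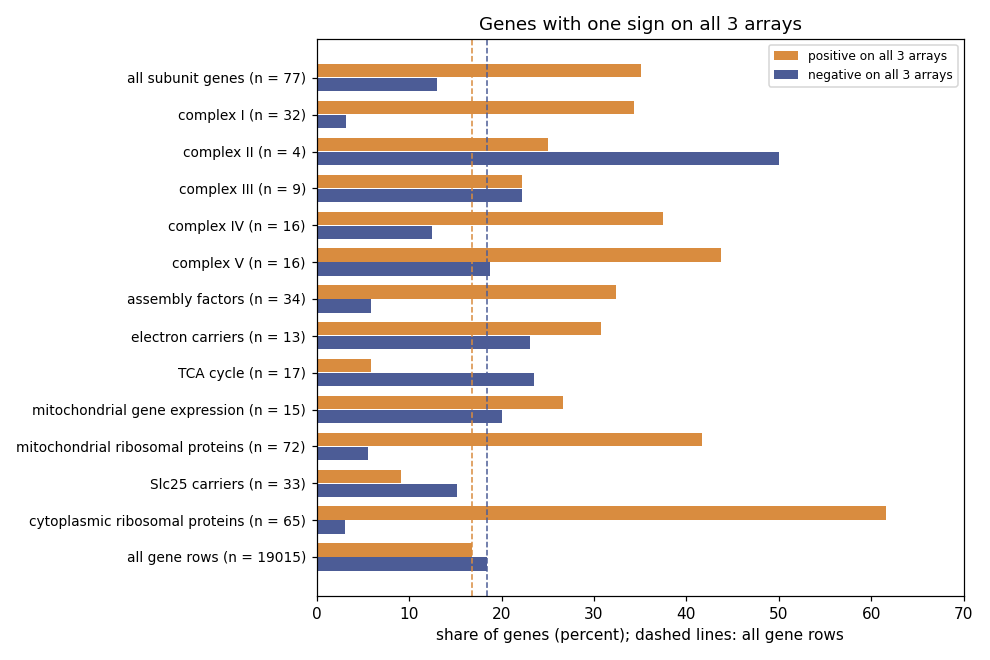
Share of genes in each list (percent, x axis) that were positive (orange) or negative (blue) on all 3 arrays; dashed lines give the shares over all 19015 rows, 16.8% and 18.5%. Subunit genes had 35.1% positive and 13.0% negative, and complex II was the complex with more negative (2) than positive (1) genes, of 4.

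Markers of red blood cells had the highest median of the lists followed (1.09). Of 12 erythroid markers with values, 10 were positive on all arrays and 0 negative, with medians of 0.57, 1.32 and 1.02 on arrays 1, 2 and 3, among them Ermap (mean 3.51 ± 0.25), Klf1 (2.18 ± 0.22) and Hbb-bh1 (4.07 ± 1.09). The remaining 2 had mixed signs: Gata1, an erythroid transcription factor, had -1.54, -0.72 and 0.059, and Epor, the erythropoietin receptor, had -0.14, 0.19 and 0.27. With limma, 0 of the 12 passed the adjusted threshold, and 7 had an unadjusted p under 0.05. All 7 were higher at 11.5 dpc, where 4.17% of all rows were. The kidney rudiment markers had 3 positive (25%) and 6 negative (50%) of 12, where 16.8% and 18.5% of all rows were. Their median was -0.19, with Cited1 at -0.85 ± 0.37 and Foxd1 at 0.72 ± 0.36. The erythroid median was highest on array 2 and that of the subunit genes on array 1. Medians over all rows also differed by array (0.011, 0.064 and -0.091), so no conclusion was drawn from this order. The part of red blood cells and of kidney rudiment cells in the ratios of the subunit genes was not tested. In RNA of whole tissue, fewer cells of a type and less RNA per cell cannot be told apart.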

How the data were processed

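Gene expression was measured on 3 two-colour arrays, each with both ages. The deposited values are log2 ratios; their base was found from the values, since 2 raised to each value between -3 and 2 was a whole multiple of 0.001 (within 0.02 of a step) for 100% of them. Images were quantified by the authors with ImaGene 5.5, per the labels, which carry more than 1 account of the normalisation: print-tip loess followed by normalisation between arrays, and a Lowess curve through 20% of the data with a floor of 10 on the control channel. The labels do not say which of them made these values. No spot intensities entered, so dim and saturated spots could not be assessed, and the number of arrays limits the precision.

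Of 22702 features, 883 controls and blanks were left out. Gene names came from the platform annotation (16656 features with 1 symbol, 137 with several, 5026 with none); identifiers matched 15970 of them to the GRCm38.p6 gene table and renamed 0. Features of a symbol were averaged where no array lacked a value, which gave 19015 rows; each of the 77 members had 1 feature. A two-sided moderated test of each row's mean against 0 was run in R 4.3.3 with limma 3.58.1, its lmFit and eBayes functions, with 2 residual degrees of freedom and Benjamini-Hochberg adjustment over every row, after a check on simulated data. Gene groups were described by counts and medians, with no test.

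The members, gene lists and tests were chosen with earlier results of these data known. Single values are given for core and F1 subunits, isoforms of complex IV, the 3 highest and 3 lowest genes of a complex (every gene of complex II) and genes at an unadjusted p under 0.05, and for the 2 genes with the smallest p in each pathway list; ribosomal and carrier families are given by counts alone. Other members named with values (Ndufb3, Ndufa7, Ndufa1, Ndufs5-ps, Cox5b, Cox6c, Cox7c, Atp5h, Atp5o, Atp5g1, Atp5g2, Atp5k-ps1 and Atp5md) and some markers were named for their role or after their values were seen. The same holds for Cycs, Coq5, Etfdh, Nrf1 and Gabpa of the pathway lists. Alternatives were other scalings, array 3 turned, each array left out, a dye term, single features, at least 2 arrays, an ordinary one-sample test and a running median over 101 library neighbours.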

Additional observations from a re-analysis of the deposited data

How the results depend on the processing

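Limma passed 0 members and 0 rows under every alternative run. The members' median stayed positive in all of them, from 0.066 (array 3 turned) to 0.15 (median centring), and no median of a complex changed sign. With array 3 turned the median over all rows was positive as well (0.042), and that of complex III (0.023) lay below it. The count of genes positive on all arrays was 27 and that of negative genes was 10. Without array 1, 34 were positive and 20 negative, where 24.5% and 26.7% of all rows were. Without array 2 the counts were 32 and 15, beside 23.8% and 31.1% of all rows. Without array 3 they were 38 and 12, beside 35.8% and 28.8% of all rows. Fewer arrays were then asked to share a sign. With array 3 turned these counts were 11 and 2 of the 77, where 18.9% and 10.3% of all rows were positive and negative. By its own construction it shrinks or turns means that array 3 shares in: it turned 23 of the 77, and of the 37 one-signed genes Ndufa3 (-0.73), Ndufs4 (-0.45), Cox4i2 (-0.055), Cox7c (-0.035), Atp5j (-0.14), Cox7a1 (0.11) and Atp5a1 (0.018). Among the 43 genes named by the rule, 12 means other than those of the turned one-signed genes moved by more than their SD. These 12 overlap with the 23, as the means of Uqcrfs1, Cox5a and Cox8a also turned. The running median, and leaving out the 2 pseudogene symbols (26 positive, 10 negative), were chosen after the data were seen; the former left 23 positive and 12 negative genes and kept the direction of all 37 one-signed means. Each ratio already pairs the ages within an array. No paired analysis was possible because no other group of ratios shares the array numbers. The dye term left 1 residual degree of freedom.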
